A study of Sus scrofa with 18 samples.

Results

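Monoamine neurons make dopamine, noradrenaline or serotonin, and 10 genes that mark them were followed in the developing pig brain. The genes were taken by their names from the gene-wise read counts, and all 10 were found among the 31908 genes of the table, with none missing. They comprise TH, DDC and DBH (synthesis of dopamine and noradrenaline), TPH2 (synthesis of serotonin), SLC18A2 (loading of vesicles), SLC6A3, SLC6A4 and SLC6A2 (reuptake of dopamine, serotonin and noradrenaline), and the transcription factors NR4A2 and FEV. RNA was sequenced from whole fetal brains of domestic pigs, Landrace x Large White gilts bred to boars of the line LR-M6, at gestation days (GD) 45, 60 and 90. Each day gave 3 female and 3 male fetuses, 18 libraries in all, and the labels give each fetus a litter size but no dam, so that some fetuses may be litter mates. Counts per library ranged from 15118843 to 19729783, and levels are given as CPM, the count scaled to a common library total. The p-values measure the spread between these fetuses. Comparisons averaged over the sexes take the 6 fetuses of a day as independent. If some are litter mates, those p-values may be too small.

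The cell bodies of these neurons sit in small groups in the midbrain and hindbrain, while their fibres reach most of the brain. Tyrosine hydroxylase (TH) makes L-DOPA, aromatic L-amino acid decarboxylase (DDC) turns it into dopamine, and dopamine beta-hydroxylase (DBH) turns dopamine into noradrenaline. Tryptophan hydroxylase 2 (TPH2) starts the synthesis of serotonin in the brain, which DDC completes. The vesicular transporter SLC18A2 serves all of these transmitters, whereas each plasma membrane transporter clears mainly its own. RNA from a whole brain therefore holds a small share from these cells, and in such bulk RNA fewer cells of a type and less RNA per cell cannot be told apart.

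Some libraries differed in the markers of brain regions. These differences are given before the results because some monoamine genes also differed in part of these libraries. In male GD60 replicate 3, the midbrain and hindbrain transcription factor EN1 had 1 count (0.0603 CPM, against 2.23 to 7.07 CPM in the other 5 GD60 libraries) and EN2 had 0.241 CPM against 3.75 to 16.0 CPM. The cortical neuron factor TBR1 had 212 CPM there, within the 171 to 251 CPM of the others. In male GD45 replicate 2, EN1 had 3.52 CPM against 10.5 to 16.4 CPM in the other 5 GD45 libraries, and TBR1 was above them, at 328 CPM. In male GD45 replicate 3, TBR1 had 150 CPM against 231 to 328 CPM. The 9 HOX genes listed as hindbrain and spinal cord markers had no count in male GD45 replicate 2, female GD60 replicate 3 and male GD60 replicate 3, and summed to 106 CPM in female GD45 replicate 2. Female GD60 replicate 3 also differed from the other females of its day (chi-square per degree of freedom 66 and 48.5, against 6.71 between those). The part of these differences in the results below was not tested, and the main changes are given with and without these libraries.

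TH and DDC, which act in sequence, were the members that fell from GD45 to GD60. TH (ENSSSCG00000039767, minus strand of chr2:1499618-1506615 on Sscrofa11.1) was read in the female GD45 libraries at 11.0, 11.3 and 12.6 CPM and in the male ones at 9.73, 5.55 and 14.3 CPM. At GD60 it was at 5.48, 5.09 and 5.63 CPM in females and at 5.24, 7.71 and 1.09 CPM in males. At GD90 it was at 8.06, 8.69 and 8.16 CPM in females and at 7.82, 6.52 and 6.15 CPM in males. All 3 females of GD60 were below all 3 of GD45 and of GD90, whereas the males of GD45 and GD60 overlapped because male GD45 replicate 2 was low and male GD60 replicate 2 was high. The mean over 6 libraries was 10.8 ± 2.99 CPM at GD45 (SD, n = 6), 5.04 ± 2.16 CPM at GD60 and 7.57 ± 1.00 CPM at GD90. Averaged over the sexes, the log2 fold change from GD45 to GD60 was -1.12 (SE 0.31, adjusted p = 0.0191 by the quasi-likelihood test of edgeR, adjusted by Benjamini-Hochberg over all genes tested), a level 2.18-fold lower.

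DDC (ENSSSCG00000022009, minus strand of chr9:136495891-136571197) had 11.6, 13.4 and 11.96 CPM in females and 14.5, 8.29 and 14.3 CPM in males at GD45. At GD60 it had 9.70, 9.98 and 6.995 CPM in females and 8.61, 7.30 and 2.78 CPM in males. Again the females of the 2 days did not overlap and the males did, through male GD45 replicate 2. The log2 fold change averaged over the sexes was -0.76 (SE 0.21, edgeR adjusted p = 0.022). TH and DDC were the only members called among 10 in this comparison, both lower, beside 16.7% of the 16325 genes tested. DBH (log2 fold change -1.05, SE 0.41, edgeR adjusted p = 0.0916) and FEV (-1.09, SE 0.49, adjusted p = 0.145) did not pass. Without male GD45 replicate 2 DBH passed (-1.30, edgeR adjusted p = 0.00891), and without female GD60 replicate 1 FEV did (-1.69, adjusted p = 0.0431). The median log2 fold change of the 10 members was -0.19.

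The fall of TH was called in 18 of 18 fits that dropped a single library (log2 fold change -1.42 to -0.88, edgeR adjusted p 0.00577 to 0.046). DDC was called in 17 of these 18 fits and had an adjusted p of 0.0505 without female GD45 replicate 2. With male GD45 replicates 2 and 3 and male GD60 replicate 3 left out together, TH changed by -0.82 (SE 0.16, edgeR adjusted p = 0.00388) and DDC by -0.65 (SE 0.15, adjusted p = 0.011). With female GD60 replicate 3 left out as well, the values were -0.85 (SE 0.16, edgeR adjusted p = 0.00276) and -0.59 (SE 0.14, adjusted p = 0.0115). In these fits the lone male left at GD45 is assumed to vary like the other groups. When the model held only the GD45 and GD60 libraries, neither passed (edgeR adjusted p = 0.0634 for TH and 0.0639 for DDC). DDC did not pass with counts summed from the exon table (edgeR adjusted p = 0.121), which held only 25.3% of its counts.

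Within single sexes no member passed from GD45 to GD60 in edgeR's quasi-likelihood test, where 7.22% of all genes were called in females and 5.61% in males. At an unadjusted p under 0.05 there were 2 members in females (TH and FEV) and 3 in males (TH, DDC and DBH), and DESeq2 called 0 members in females and 1 in males, DDC. Throughout, the shares of all genes called are for the adjusted p of edgeR. Those at an unadjusted p or by DESeq2 are not reported, so such counts of members have no share beside them. In females TH had a log2 fold change of -1.08 (SE 0.44, edgeR adjusted p = 0.155) in the model that shares its spread with the males. A model of the 6 female libraries alone gave -1.09 with an SE of 0.17 and an adjusted p of 0.0107. In males DDC changed by -1.05 (SE 0.31, edgeR adjusted p = 0.0538). The 3 members whose female libraries did not overlap between GD45 and GD60 were TH, DDC and SLC18A2, all lower at GD60, beside 29.7% of all genes. For SLC18A2 this rests on its last exon, whose limit is given below. Outside that exon its female libraries overlapped, at 0.833 to 2.04 CPM at GD45 and 0.659 to 2.02 CPM at GD60. In males 0 members were apart in this way, beside 18.4% of all genes, and over both sexes 0 members were apart in 6 libraries against 6, beside 7.96%.

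**Figure D1:**
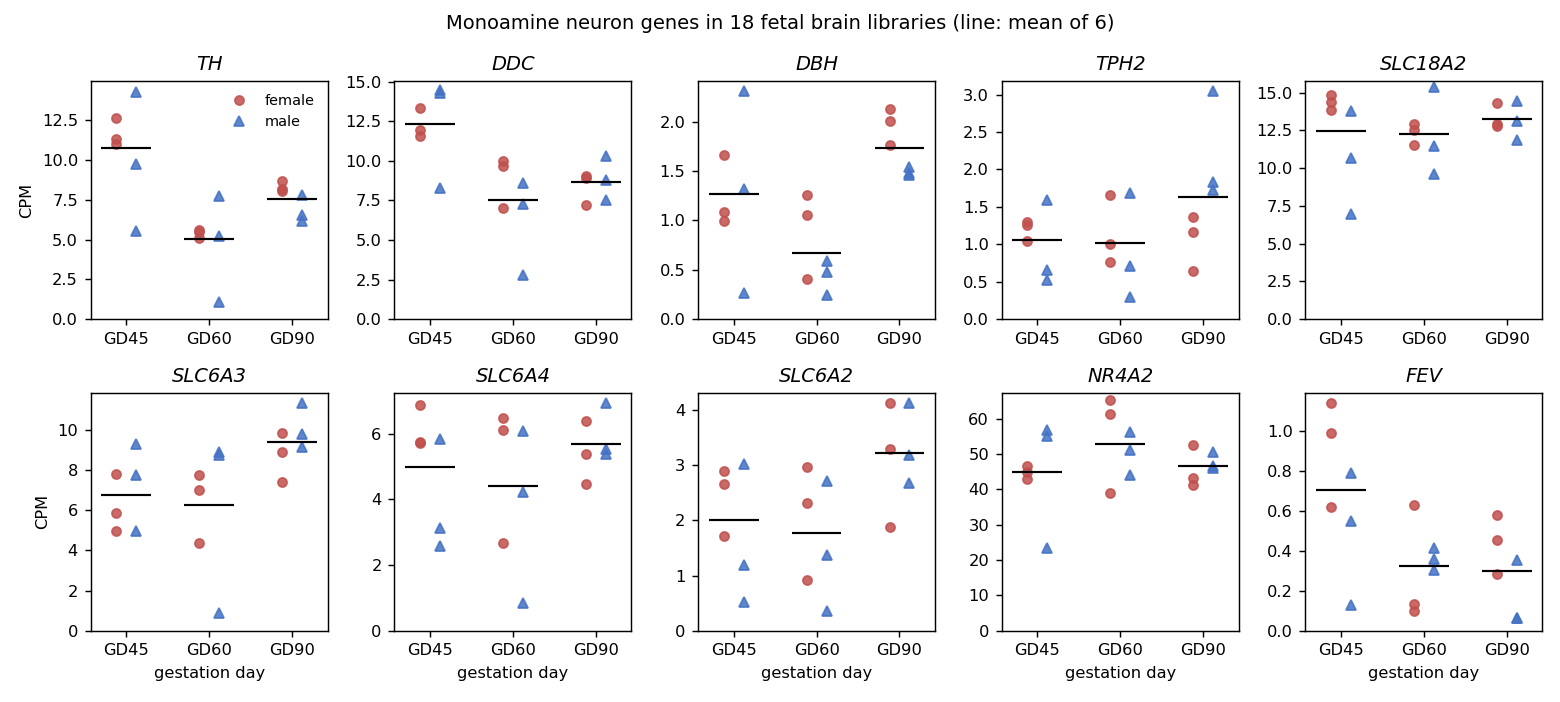
Level of each member in CPM (vertical axis, from 0) against gestation day, with 1 point per library (circles female, triangles male) and a line at the mean of the 6 libraries of a day. TH falls from a mean of 10.8 CPM at GD45 to 5.04 CPM at GD60, and DBH lies between 1.46 and 2.13 CPM at GD90, above all 6 libraries of GD60.

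The sequence before the annotated start of these genes was searched for a pair of motifs, since both are known from studies of catecholamine genes. The letters searched were TGACGTCA, the full cyclic AMP response element bound by CREB proteins, and AAAGGTCA, the element bound by the NR4A family to which the member NR4A2 belongs, each on both strands. The window was 250 bases before the RefSeq gene start on Sscrofa11.1, for the 10 members and for 19556 protein-coding genes. The cyclic AMP element was present before 2 of 10 members, TH and SLC18A2, and before 1.70% of all the genes. The NR4A element was before 0 of 10 members and 0.839% of all genes. Both stretches of 30 bases are shown, read in the direction of the gene with the motif in capitals, because they are the shared regulatory letters found.
TH: caggggggcttTGACGTCAgctcagcctat
SLC18A2: cgcgccggccgTGACGTCAgagccggaccc
The TH stretch lies at chr2:1506198-1506227 on the minus strand, with the motif beginning 36 bases before the RefSeq start, and within the first exon of the deposited annotation, which starts 435 bases further out. The SLC18A2 stretch lies at chr14:127357494-127357523 on the plus strand, with the motif beginning 100 bases before the RefSeq start. A match of these letters is a description, not evidence of a bound site.

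DBH, the enzyme that defines noradrenaline neurons, was the member that rose from GD60 to GD90, a comparison that shares the GD60 libraries with the one above. DBH (ENSSSCG00000005742, plus strand of chr1:273204400-273225558) had 1.26, 1.06 and 0.406 CPM in females and 0.482, 0.593 and 0.241 CPM in males at GD60. At GD90 it had 1.76, 2.13 and 2.01 CPM in females and 1.48, 1.54 and 1.46 CPM in males. The lowest GD90 library was above the highest GD60 library, which was the case for 1 of 10 members and for 24.3% of all genes. The counts behind these levels were small, 4 to 20 per library at GD60 and 22 to 33 at GD90. Averaged over the sexes, the log2 fold change was 1.48 (SE 0.40, edgeR adjusted p = 0.00719), 2.79-fold higher. DBH was 1 of 10 members called, where 42.4% of all genes were called.

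The rise of DBH was called in all 18 fits that left out 1 library (log2 fold change 1.31 to 1.63, edgeR adjusted p 0.000795 to 0.0219). Without the 3 male libraries that stand apart it was 1.34 (SE 0.29, edgeR adjusted p = 0.00157), and 1.17 (SE 0.26, adjusted p = 0.0017) without female GD60 replicate 3 as well. At GD45 the 6 libraries ranged from 0.261 CPM in male replicate 2 to 2.31 CPM in male replicate 3, a range that held all values of GD90 and all but the lowest of GD60. In males alone DBH rose by 1.73 on the log2 scale (SE 0.59, edgeR adjusted p = 0.0325), the 1 member called beside 34.5% of all genes. This call was lost in 6 of the 18 fits without 1 library (each of the 6 male libraries compared), with a log2 fold change of 1.47 and an adjusted p of 0.122 without male GD60 replicate 3. In females DBH had a log2 fold change of 1.22 (SE 0.55, edgeR adjusted p = 0.108), and 0 members were called beside 27.1% of all genes, with 1 at an unadjusted p under 0.05 and 0 by DESeq2.

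SLC6A2, the noradrenaline transporter of the same neurons (ENSSSCG00000002827, minus strand of chr6:29931664-29980823), had an estimate in the same direction that did not pass. It ranged from 0.362 to 2.96 CPM at GD60 (median 1.84) and from 1.88 to 4.12 CPM at GD90 (median 3.23), and its log2 fold change was 0.94 (SE 0.41, edgeR adjusted p = 0.0765). It passed without male GD45 replicate 2 (0.94, edgeR adjusted p = 0.0483) and without male GD60 replicate 1 (1.29, adjusted p = 0.0233). The days overlapped, with female GD90 replicate 3, the lowest of GD90. At GD45 it ranged from 0.522 to 3.02 CPM, and its change to GD60 was -0.19 (SE 0.42).

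The other estimates from GD60 to GD90 were mostly above 0 and none of them passed. Of the 10 members, 8 had a log2 fold change above 0, and the median was 0.53. TH had 0.62 (SE 0.31, edgeR adjusted p = 0.119), which did not pass. It was called in the model of the 6 female libraries of GD60 and GD90 (0.70, SE 0.17, edgeR adjusted p = 0.0181) without male GD60 replicate 2 (0.91, adjusted p = 0.0268) and without the 3 male libraries that stand apart (0.38, SE 0.14, adjusted p = 0.0308). All 3 females of GD90 were above all 3 of GD60 for 2 members, TH and DBH, beside 45.2% of all genes. In males DBH, TPH2 and SLC6A3 were apart in this way, beside 54.4% of all genes.

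**Figure D2:**
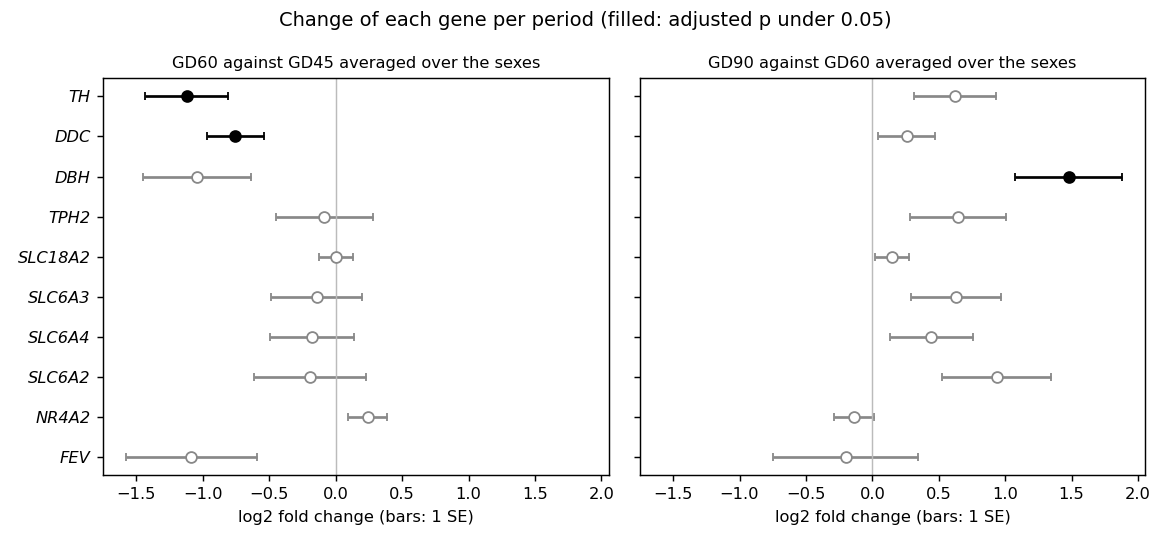
Log2 fold change of each member averaged over the sexes (horizontal axis, bars 1 SE) from GD45 to GD60 on the left and from GD60 to GD90 on the right, from edgeR's quasi-likelihood fit of all 18 libraries. The filled points, TH and DDC on the left and DBH on the right, have an adjusted p under 0.05.

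SLC6A3, the dopamine transporter and the member most particular to midbrain dopamine neurons (ENSSSCG00000017121, plus strand of chr16:79186108-79220297), was not called in either period. It ranged from 4.95 to 9.30 CPM at GD45 (median 6.80), from 0.905 to 8.90 CPM at GD60 (median 7.37) and from 7.37 to 11.3 CPM at GD90 (median 9.46). Its log2 fold change was -0.14 (SE 0.34, edgeR adjusted p = 0.818) to GD60 and 0.63 (SE 0.34, adjusted p = 0.15) to GD90. The GD60 library with 0.905 CPM was male replicate 3, and the other 5 began at 4.36 CPM.

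NR4A2, a nuclear receptor that midbrain dopamine neurons need and that cortical neurons also express (ENSSSCG00000015871, minus strand of chr15:63487698-63505244), was the most abundant member. It ranged from 23.5 to 56.7 CPM at GD45, from 38.9 to 65.2 CPM at GD60 and from 41.1 to 52.5 CPM at GD90. Its log2 fold change was 0.24 (SE 0.15, edgeR adjusted p = 0.296) and then -0.14 (SE 0.15, adjusted p = 0.477). In females alone NR4A2 passed only with the 3 male libraries and female GD60 replicate 3 left out together, among the fits run (0.47, SE 0.12, edgeR adjusted p = 0.0153, and then -0.35, SE 0.12, adjusted p = 0.0364). The libraries that were low in NR4A2 were not those low in TH. In male GD60 replicate 3 NR4A2 had 51.1 CPM, 90.9% of the median of the other 5 libraries of its day, while TH had 19.8% of its median. In male GD45 replicate 3 NR4A2 had 50.4% and TH 130% of the median of the others, and the cortical neuron factor TBR1 had 55.4%.

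The serotonin genes gave no call in either period. TPH2 (ENSSSCG00000021122, plus strand of chr5:35918569-36017514) ranged from 0.522 to 1.59 CPM at GD45, from 0.302 to 1.69 CPM at GD60 and from 0.648 to 3.04 CPM at GD90, on 5 to 46 counts. Its log2 fold change was -0.086 (SE 0.36) and then 0.65 (SE 0.36, edgeR adjusted p = 0.162), which passed without male GD60 replicate 1 (1.03, adjusted p = 0.0297). In males it was 1.28 from GD60 to GD90 (SE 0.50, adjusted p = 0.0578), which DESeq2 called (adjusted p = 0.0457), while in females it was 0.0058 (SE 0.51). The test of this difference between the sexes gave 1.28 (SE 0.72, edgeR adjusted p = 0.309), so the sexes were not shown to differ.

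SLC6A4, the serotonin transporter (ENSSSCG00000017797, minus strand of chr12:46285997-46314378), ranged from 2.57 to 6.88 CPM at GD45, from 0.845 to 6.48 CPM at GD60 and from 4.47 to 6.95 CPM at GD90. Its log2 fold change was -0.18 (SE 0.31) and then 0.44 (SE 0.31, edgeR adjusted p = 0.274). FEV, the transcription factor of serotonin neurons also called PET1 (ENSSSCG00000035988, minus strand of chr15:121005279-121008748), was read from 1 to 20 counts per library. Its median was 0.704 CPM at GD45, 0.331 CPM at GD60 and 0.320 CPM at GD90, with changes of -1.09 and -0.20 (SE 0.49 and 0.54).

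SLC18A2 is uncertain as it was counted. The gene (ENSSSCG00000020671, plus strand of chr14:127357555-127396533) had 3800 counts over all libraries, and 88.9% of them lay in its last exon, chr14:127394034-127396533. The final 711 bases of this exon overlap the last exon of PDZD8 on the other strand, a gene with 11264 counts, and the sources used here do not say whether strand was used in counting. Per base, the last exon had 8.94 times the counts of the other exons, whereas in the 9 other members this ratio was 0.0521 for DDC and 1.94 to 2.76 for the rest. The ratio of DDC is uncertain, since only 25.3% of its counts were assigned to single exons. No other member has an exon that overlaps another gene. The total of SLC18A2 varied little, from 6.99 to 15.4 CPM over the 18 libraries, with changes of 0.0012 (SE 0.13) and 0.15 (SE 0.13). The 422 counts outside the last exon gave 0.297 to 2.58 CPM, with changes of -0.51 and 0.73 that did not pass (edgeR adjusted p = 0.483 and 0.21).

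**Figure D3:**
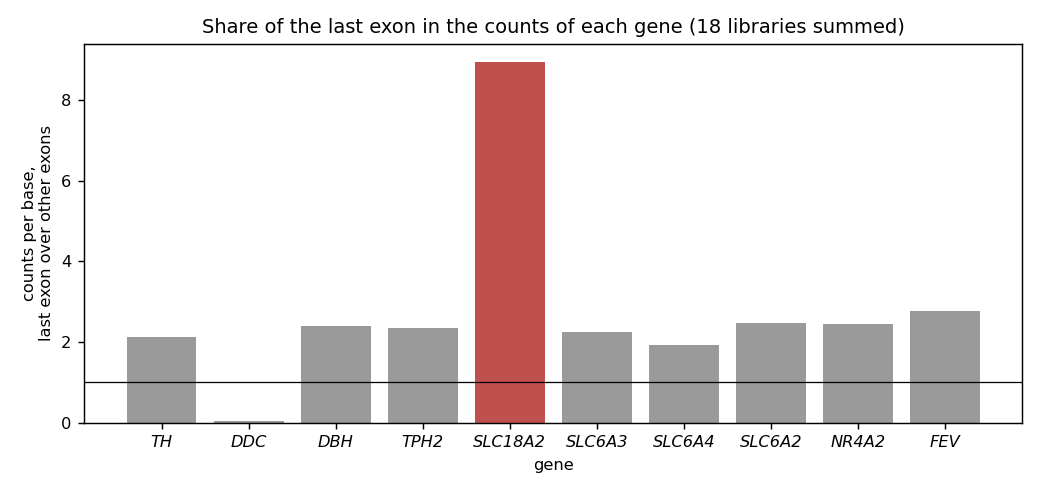
Counts per base in the last exon divided by counts per base in the other exons (vertical axis, from 0) for each member, over 18 libraries summed. SLC18A2 stands at 8.94, while 8 members lie between 1.94 and 2.76. DDC is at 0.0521, from the 25.3% of its counts assigned to single exons.

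Levels can be compared between genes only per length, as CPM per kilobase of exon (CPM/kb). At GD45 the order by the mean of CPM/kb was NR4A2 (14.4 ± 3.81, SD, n = 6), TH (4.96 ± 1.38), SLC18A2, SLC6A3, DDC (2.23 ± 0.42), SLC6A4 (1.10 ± 0.38), FEV, DBH (0.469 ± 0.254), SLC6A2 and TPH2 (0.330 ± 0.127). NR4A2 was above every library of every other member at all 3 days. Every other pair of neighbours in the order of GD45 and GD60 overlapped in range. At GD90 the order by CPM/kb was NR4A2, SLC6A3 (3.64 ± 0.50), TH (3.49 ± 0.46), SLC18A2, DDC (1.56 ± 0.20), SLC6A4 (1.26 ± 0.19), DBH (0.639 ± 0.106), SLC6A2, TPH2 and FEV. There SLC18A2 and DDC did not overlap, nor did SLC6A4 and DBH, and the other neighbours below NR4A2 did. The mean of TH was above that of SLC6A3 at GD45 (2.62 ± 0.69 CPM/kb for SLC6A3) and below it at GD90, with ranges that overlapped at both days. The length used for DDC includes a last exon with few counts assigned to it, which may lower its value per length. Only 25.3% of the DDC counts were assigned to single exons, so this is uncertain. SLC18A2 carries the limit given above.

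The spread between libraries was smallest at GD90 for 8 members. The coefficient of variation of CPM over 6 libraries was 27.8%, 42.9% and 13.2% for TH at GD45, GD60 and GD90. For SLC6A3 it was 26.3%, 49.4% and 13.9%, and for DBH 54.2%, 59.1% and 16.5%. FEV, with 69.4% at GD90, had its largest spread there, and TPH2 had 38.3%, 54.1% and 49.9%. The spreads of GD45 and GD60 include the 3 male libraries that stand apart. SLC6A3, for instance, had 0.905 CPM in male GD60 replicate 3 against 4.36 to 8.90 CPM in the other 5 libraries. The share of all genes with their smallest spread at GD90 is not given here. The differences in spread between the days were not tested.

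Males and females were compared at each day, a question the study asked of all genes. With edgeR's quasi-likelihood test, 0 of 10 members were called at GD45 (0.0919% of all genes), at GD60 (0.098%) and at GD90 (0.098%). At an unadjusted p under 0.05 there was 1 member at GD45, SLC18A2 (log2 difference, males minus females, -0.38, SE 0.18), and 0 at GD60 and GD90, and DESeq2 called 0 at each day. Counted without its last exon, SLC18A2 had a log2 difference of 0.22 (SE 0.62). All 3 males were apart from all 3 females in 1 member at GD45 (5.79% of all genes), in 0 at GD60 (11.2%) and in 3 at GD90 (36% of all genes). At GD90 these were TPH2, with 1.84, 1.72 and 3.04 CPM in males against 1.36, 1.16 and 0.648 CPM in females, and TH and DBH, lower in the males by the values above. Their log2 differences at GD90 were 0.98 (SE 0.50, edgeR adjusted p = 0.379), -0.34 (SE 0.43) and -0.45 (SE 0.52). No member's change over either period was called different between the sexes (0 called of 10 in both interactions, 0% of all genes, 0 members at an unadjusted p under 0.05 and 0 by DESeq2).

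Male GD60 replicate 3 was the lowest of its day in 7 of 10 members. The share of all genes in which it was the lowest is not given here, so nothing particular to the members is read from this count. It had 18 counts of TH, 46 of DDC, 15 of SLC6A3, 14 of SLC6A4, 6 of SLC6A2, 5 of TPH2 and 4 of DBH. Against the median of the other 5 libraries of GD60 these were 19.8% for TH, 32.2% for DDC, 11.7% for SLC6A3, 13.9% for SLC6A4, 15.7% for SLC6A2, 29.9% for TPH2 and 40.7% for DBH. NR4A2, SLC18A2 and FEV were within the range of the others. Thus genes of dopamine, noradrenaline and serotonin neurons were low together in 1 library. In the same library EN1 was at 1.13%, EN2 at 3.37%, the retinal dehydrogenase ALDH1A1 of midbrain dopamine neurons at 6.10%, FOXA2 at 6.84% and GATA3 at 15.8% of the median of the others. The general neuron markers RBFOX3 and SNAP25 were at 108% and 91.3%, and the cortical factor TBR1 at 98.9%.

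Male GD45 replicate 2 was the lowest of its day in 6 members. DBH was at 19.8%, SLC6A2 at 19.7%, FEV at 16.5%, TPH2 at 41.7%, TH at 49.0% and DDC at 62.0% of the median of the other 5 libraries. EN1 was at 27.6% there, PHOX2A, a factor of noradrenaline neurons, at 53.0% and TBR1 at 131%. The other listed factors of monoamine neurons were mixed. EN2 was at 34.0% and GATA3 at 61.7%, whereas LMX1A was at 97.1%, FOXA2 at 119% and FOXA1 at 137%. In male GD45 replicate 3, 3 members (TH, DBH and SLC6A3) were the highest of the day and 3 (SLC18A2, SLC6A4 and NR4A2) the lowest, beside TBR1 at 55.4% and RBFOX3 at 45.1%. For these libraries too the share of all genes at the lowest or highest place is not given here. They were not left out of the main comparisons, nor was male GD60 replicate 3. Male and female GD45 replicate 3 had labelled brain weights of 0.714 and 0.665 mg, against 1.55 to 1.86 mg in the other GD45 fetuses. Both have a litter size of 8, as do male and female GD60 replicate 3. The part of brain weight and litter size in these values was not tested.

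**Figure D4:**
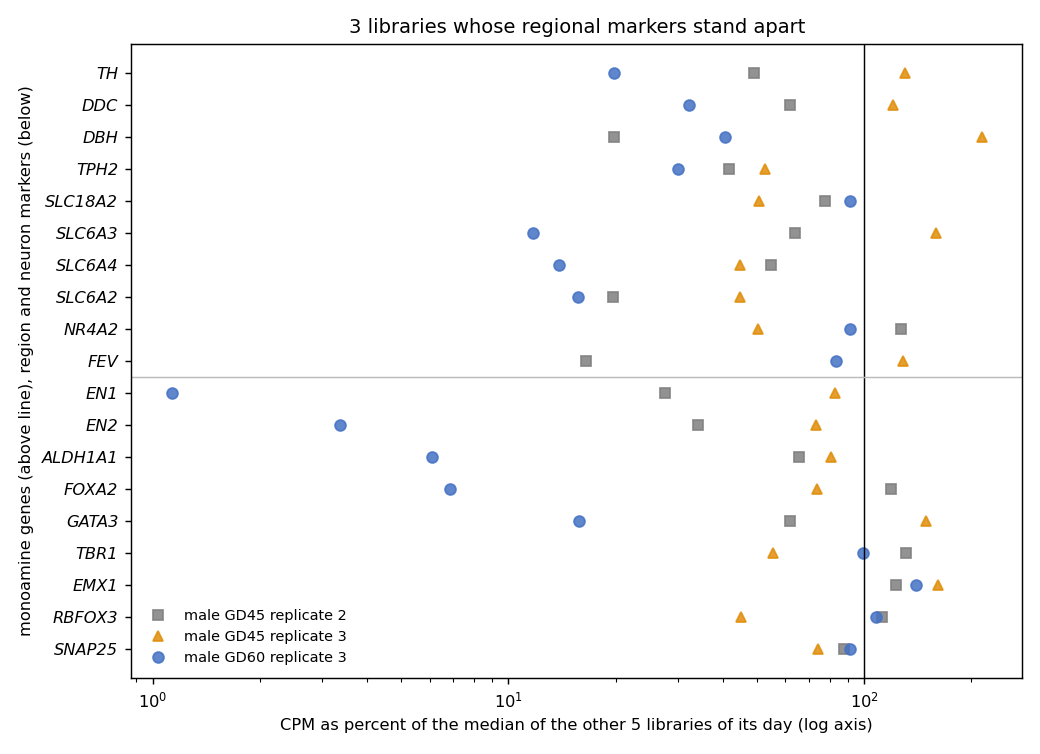
CPM in 3 male libraries as percent of the median of the other 5 libraries of the same day (horizontal log axis, 100 marked) for the 10 members above the line and for regional and neuron markers below it. In male GD60 replicate 3 the circles run from 1.13% for EN1 and 11.7% for SLC6A3 to 140% for EMX1.

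Pairs of members were compared by how their libraries deviated from the mean of their group on the log2 CPM scale, which sets aside the differences between days and sexes. Of 8 pairs tested over 18 libraries, 1 passed. TPH2 and SLC6A4, the enzyme and the transporter of serotonin neurons, had a Pearson r of 0.84 (exact permutation test within groups, two-sided p = 0.00167, adjusted p = 0.0134) and a Spearman rho of 0.84 (exact permutation p = 0.000257, adjusted p = 0.00206). Without the 2 libraries farthest from the median of TPH2, male GD60 replicates 1 and 3, r was 0.71. Without male GD45 replicate 3, r stayed at 0.84 and its adjusted p was 0.0525 by the exact permutation test.

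TH and SLC6A3 had r = 0.91 (exact permutation p = 0.0291, adjusted p = 0.0771) and rho = 0.58 (adjusted p = 0.119 by exact permutation). TH and DDC had r = 0.88 (exact permutation adjusted p = 0.0771) and rho = 0.63, and TH and DBH r = 0.64 (exact permutation adjusted p = 0.0771) and rho = 0.54. Without male GD60 replicates 2 and 3, the libraries farthest from the median of TH, r was 0.71 for SLC6A3, 0.82 for DDC and 0.77 for DBH. Without male GD60 replicate 3 alone, r was 0.65 and rho 0.33 for SLC6A3, 0.69 and 0.26 for DDC, and 0.78 and 0.47 for DBH. DBH and SLC6A2 had r = 0.64 (exact permutation adjusted p = 0.108) and rho = 0.63, and r = 0.72 without male GD45 replicates 2 and 3. The pairs across transmitters had r = 0.45 and rho = 0.19 for TH and TPH2 (exact permutation adjusted p = 0.42) and r = 0.37 and rho = 0.34 for TPH2 and DBH (exact permutation adjusted p = 0.42). Without male GD60 replicate 3, TH and TPH2 had r = -0.05. TPH2 and FEV, a pair used by the same neurons, had r = 0.09 (exact permutation p = 0.753, adjusted p = 0.753) and rho = 0.23, on the low counts of FEV.

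**Figure D5:**
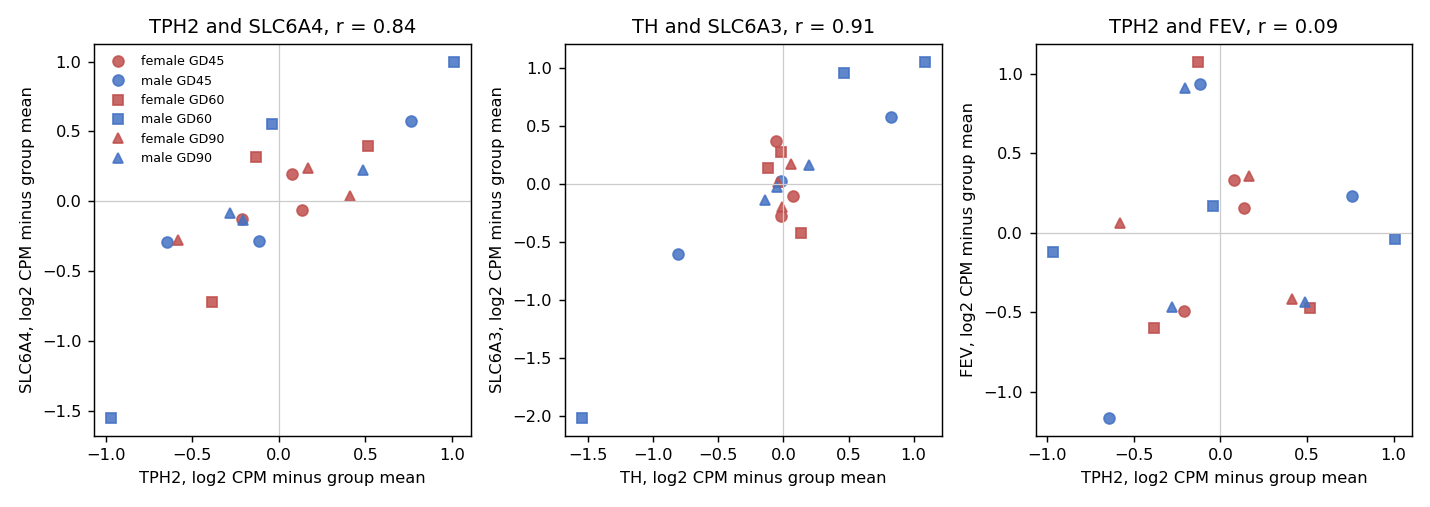
Deviation of each library from its group mean in log2 CPM for TPH2 and SLC6A4, TH and SLC6A3, and TPH2 and FEV (circles GD45, squares GD60, triangles GD90; red female, blue male). The lowest square in the first 2 panels is male GD60 replicate 3, and the cloud of TPH2 and FEV shows no direction (r = 0.09).

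Among 13605 other tested genes with a symbol, those whose within-group deviations over the 18 libraries were most like those of TH were GATA3 (r = 0.96), C1QL4 (r = 0.92) and SLC6A3 (r = 0.91). For TPH2 GJA5 (r = 0.87) and PRPF18 (r = 0.86) were among the 3 highest, and for DBH they were TRPM2, HRC and TTC25 (r = 0.88 each). These are the highest of many correlations that share the same libraries and are given as a description.

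Lists of genes that specify or mark monoamine neurons were read beside the members, on the same fit. Their counts stand beside the 16.7% of all genes called from GD45 to GD60 and the 42.4% called from GD60 to GD90, and nothing particular to a list is read from them. Of 9 tested genes of dopamine neuron specification, 4 fell and 0 rose from GD45 to GD60, by -1.36 for LMX1B, -1.37 for FOXA2, -0.72 for LMX1A and -1.25 for FOXA1 on the log2 scale (edgeR adjusted p 0.00904 to 0.0189). From GD60 to GD90 4 fell and 3 rose, among them KCNJ6, a potassium channel of dopamine neurons (0.75), and LMX1A (-1.09), FOXA1 (-1.54) and LMX1B (-1.32). Of 4 tested serotonin factors, 3 fell at GD60 (GATA3 -1.32, GATA2 -0.58 and LMX1B, which is on both lists), and at GD90 GATA3 and LMX1B fell again by -1.07 and -1.32 while NKX2-2, which is also a factor of oligodendrocytes, rose by 0.99 and GATA2 by 0.47. Of the noradrenaline factors, PHOX2A had a log2 fold change of -0.21 at GD60 (SE 0.31, edgeR adjusted p = 0.702) and fell by 1.42 at GD90 (SE 0.34, adjusted p = 0.00283). The median log2 fold change was -1.25 over the 9 genes of the dopamine list, which also holds an enzyme, a receptor and a channel, and -0.95 over the 4 serotonin factors at GD60, beside -0.19 over the 10 members.

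Markers of other regions moved in the same period. All 8 tested HOX genes fell from GD45 to GD60 (edgeR adjusted p 0.00331 to 0.0265), and their list of 9 summed to 0 to 106 CPM at GD45 (median 17.8), 0 to 3.97 CPM at GD60 and 0.129 to 1.36 CPM at GD90, with HOXB8 at 0 at both later days and HOXB5 at 0 at GD90. Of 4 tested peripheral ganglion genes 1 fell, PRPH (-1.59, SE 0.34, edgeR adjusted p = 0.00365), an intermediate filament of peripheral and of some brainstem neurons, and at GD90 PRDM12, a factor of sensory neurons, fell by -1.58. The 5 ganglion genes summed to 13.8 to 45.5 CPM at GD45, 7.12 to 16.9 CPM at GD60 and 7.32 to 10.1 CPM at GD90, and the sympathetic factor HAND2 had at most 2 counts in any library. Of 4 forebrain genes 2 fell at GD60, EMX1 and EMX2 (-0.71 and -0.99), and 3 at GD90, among them TBR1 (-0.96). Of 6 general neuron genes 3 rose at GD60, and 3 rose and 1 fell at GD90. The part of these lists in the fall of TH and DDC was not tested.

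Markers of other cells that hold monoamines were read as well. PNMT, which makes adrenaline, had 0 counts in all libraries, and of the 2 tested genes of other amines (HDC and SLC18A1) 0 were called in either period. The pineal factor CRX had at most 0.397 CPM, the mast cell receptor gene MS4A2 at most 0.392 CPM and the platelet chemokine gene PPBP at most 1.04 CPM. Of the 2 tested pineal genes ASMT rose by 1.54 at GD60 and fell by -1.23 at GD90, and the list summed to 1.81 to 8.19 CPM over all libraries. The pituitary list summed to 0.0567 to 5.74 CPM, with 0 of 1 tested genes called in either period. Of the mast cell list KIT, which neurons also express, rose in both periods (0.66 and 0.56) with the list, nearly all of it KIT, at 41.3 to 276 CPM, and of 2 platelet genes GP9 rose at GD90 (0.66) with the list, most of it ITGA2B, at 46.9 to 98.0 CPM. The part of these lists in the levels of the members was not tested.

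The cells that receive monoamines were read through the receptor genes. From GD60 to GD90, where 42.4% of all genes were called, 5 of 8 tested adrenergic receptors rose and 0 fell, led by ADRA1D (log2 fold change 2.83, SE 0.23, edgeR adjusted p = 5.27e-08) and ADRB1 (1.94, SE 0.26, adjusted p = 1.65e-05), with ADRA1B (0.56) and ADRA1A (1.30) among them. From GD45 to GD60 ADRB1 and ADRA1A rose (1.03 and 1.17) and ADRA2B fell by 0.66. Of 5 dopamine receptors 0 changed at GD60, and at GD90 DRD2, the receptor of striatal projection neurons and an autoreceptor, fell by 1.23 (SE 0.18, edgeR adjusted p = 4.49e-05) while DRD5 rose by 1.36. Of 7 tested serotonin receptors 2 rose and 1 fell at GD60 (HTR1E 0.74, HTR2C 0.52, HTR3B -0.92), and 1, HTR2A, rose at GD90 (0.98, SE 0.19, edgeR adjusted p = 0.000503).

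Of 5 tested genes of uptake and breakdown, 2 rose and 0 fell at GD60, SLC22A3, a low-affinity monoamine transporter (1.12, SE 0.12, edgeR adjusted p = 8.34e-06), and HNMT, which methylates histamine (0.65). At GD90 3 rose and 1 fell, with monoamine oxidase B (MAOB) up by 0.77 (SE 0.14, edgeR adjusted p = 0.000327), HNMT up by 0.44 and SLC29A4 down (-0.46). Of the 5 genes that make or recycle tetrahydrobiopterin, the cofactor of TH and TPH2, 0 were called at GD60. At GD90 1 of them, PCBD1, rose (0.46, edgeR adjusted p = 0.0106). Of the subplate genes, 2 rose and 2 fell at GD60 and 2 rose and 1 fell at GD90, and of 6 immediate early genes 1, ARC, rose in both periods while FOSB fell at GD90 (-1.32).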

How the data were processed

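Poly(A) RNA of 18 whole fetal brains was sequenced. Per the labels and the study's methods, the authors checked reads with FastQC, trimmed them with Trimmomatic, aligned them to Sscrofa 11.1 with HISAT2 and made the deposited counts per gene and per exon with featureCounts on Ensembl gene models. Whether strand or reads with several matches were used in counting is not given in the sources used here. The 22 deposited columns were joined to libraries by their labels, and the runs of the 4 libraries sequenced in 2 runs were summed. Replicate numbers follow accession order, and within each day the female and the male with the same number also have the same litter size, while the dam is not given.

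Genes passing filterByExpr (16325, holding 99.93% of counts) were fitted with edgeR 4.0.16 (quasi-likelihood test, TMM factors, 1 model of 6 groups of 3, R 4.3.3), and p-values were adjusted by Benjamini-Hochberg over these genes with a threshold of 0.05. CPM was computed from all counts of a library, and CPM/kb from the exon length. All 10 members passed the filter and none was at 0 in any library. The fit was tested on simulated data of 16083 genes, where 200 genes were changed by 2 on the log2 scale, more than any member's averaged change. For GD90 against GD60, 87.5% of them were recovered in females, 86.5% in males and 95% averaged over the sexes. Alternatives were the likelihood ratio test, DESeq2 1.42.0, no TMM, other filters, the exon table, fewer libraries and litter size as a block. Libraries of a group differed by more than counting noise (chi-square per degree of freedom 6.71 to 130, against 1.61 to 1.67 between runs of 1 library).

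Named genes of the other 19 lists are at most 4 called genes with the smallest adjusted p for each list and period, and genes on which a result turns. The members and lists were chosen with earlier results of these data known. Listed genes with no row under their symbol (12) were not analysed here. Promoter letters come from RefSeq on Sscrofa11.1. Values of some listed genes are not reported here.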

Additional observations from a re-analysis of the deposited data

Results flagged for a closer look

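In 5 of 30 sets of 6 libraries of a day, 1 library lay far from the other 5 on the log2 CPM scale by Dixon's test. For independent sets chance gives this in about 1 of 20. These sets share libraries and are not independent, so the count cannot be read against that rate. In male GD60 replicate 3 these were TH at 1.09 CPM, DDC at 2.78 CPM and SLC6A3 at 0.905 CPM, each the lowest of GD60. In male GD45 replicate 3 it was NR4A2 at 23.5 CPM, and in male GD45 replicate 2 FEV at 0.131 CPM (2 counts), each the lowest of GD45. The markers of brain regions in these libraries stand in the report, and their part in these values was not tested.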

How the results depend on the processing

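The fall of TH, the fall of DDC and the rise of DBH, each averaged over the sexes, kept their direction under the alternatives run. From GD45 to GD60 averaged over the sexes, the number of members called was 0 with only the libraries compared, 1 with the exon table and 1 to 3 without single libraries, and from GD60 to GD90 it was 2 without the 3 male libraries that stand apart (an alternative chosen after seeing the data) and 1 to 3 without single libraries. In females, from GD45 to GD60, it was 1 with only the libraries compared, 1 without the 3 libraries and 0 to 1 without single libraries, and from GD60 to GD90 it was 1, 2 and 0 to 1 in the same order. In males, from GD45 to GD60, it was 1 with the likelihood ratio test, 1 with DESeq2, 1 with no filter and 0 to 2 without single libraries, and from GD60 to GD90 it was 2 with the likelihood ratio test, 2 with DESeq2, 2 with only the libraries compared, 0 with the exon table and 0 to 2 without single libraries. With female GD60 replicate 3 left out beside the 3 libraries, 2 members were called in females in each period (TH and NR4A2) and 2 averaged over the sexes from GD60 to GD90 (TH and DBH). The cause was not tested.

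SLC18A2 from GD45 to GD60, near 0 as counted, turned to -0.0004 (likelihood ratio test), -0.0059 (DESeq2), -0.006 (no TMM), -0.013 (no filter), -0.012 (only the libraries compared), -0.025 (sums over 1 litter size), -0.51 (without its last exon, chosen after seeing the data), -0.16 (without the 3 libraries), -0.20 (without these and female GD60 replicate 3, chosen after seeing the data) and -0.086 to 0.098 without single libraries. Without its last exon its difference between the sexes at GD45 was 0.22. SLC6A3 from GD45 to GD60 was 0.13 without the 3 libraries, 0.22 without the 4 and -0.34 to 0.11 without single libraries, TPH2 -0.47 to 0.20, SLC6A4 -0.43 to 0.048 and SLC6A2 -0.55 to 0.20, and FEV from GD60 to GD90 was -0.84 to 0.40. The r of TPH2 and FEV was -0.04 in the exon table. That of TPH2 and SLC6A4 was 0.84 without male GD45 replicate 3 and 0.79 without male GD60 replicate 3, and that of TH and TPH2 was 0.53 without the former and -0.05 without the latter (chosen after seeing the data).

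With litter size as a replicate block, 0 members were called in the 5 comparisons of the sexes, as without it. Fetuses paired by litter size correlated from -0.15 to 0.46 over 9 pairs, 5 of them over 0.1. FEV was not tested with the filter at 1 CPM. Counts of 1 to 20 for FEV, 4 to 35 for DBH and 5 to 46 for TPH2 limit what can be seen in these genes.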
